A study of Caenorhabditis elegans with 12 samples.

Results

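The vitellogenin genes vit-1 to vit-6 of Caenorhabditis elegans, together with rme-2, the gene of the yolk receptor, were followed in every library of the series. The 7 genes were chosen by name, through the gene identifiers that the WBcel235 annotation assigns to them, and they are 7 of the 14326 genes in the deposited matrix. All 7 passed the filter on low values, so each was tested in every comparison. Levels are counts per 1000000 reads in genes (CPM).

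Whole worms at the young adult stage before fertility, grown at 20 °C on OP50 bacteria, gave 12 libraries, 3 for each of 4 genotypes. These were wild type, the mutant isp-1, and 2 double mutants that both carry the isp-1 mutation as well, isp-1;sod-3 (the sod-3 double mutant) and isp-1;sod-5 (the sod-5 double mutant). The labels name no alleles. ISP-1 is the Rieske iron-sulphur subunit of complex III in mitochondria. Superoxide dismutases are encoded by sod-3, for the mitochondria, and by sod-5, for the cytosol. According to the design text, each library joined RNA of 3 isolates out of 9 per genotype, whereas the labels state no pooling, so p-values measure the spread between libraries, which may be partly technical.

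Vitellogenins are the lipid-carrying precursors of yolk and belong to the same family as the apolipoprotein B of mammals. The adult hermaphrodite intestine makes them and secretes them into the body cavity, from which growing oocytes take them up by endocytosis through RME-2, a receptor of the LDL receptor family. The genes vit-1 to vit-5 encode the large yolk polypeptides, vit-1 and vit-2 for one of them and vit-3, vit-4 and vit-5 for the other. The product of vit-6 is cleaved into a pair of smaller yolk polypeptides. Their transcription starts around the onset of adulthood.

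The 5 genes for the large polypeptides lie on chromosome X and vit-6 and rme-2 on chromosome IV of WBcel235. The gene vit-5 (WBGene00006929) spans X:3403471-3408603 on the plus strand, and vit-4 (WBGene00006928, X:3558769-3563965) and vit-3 (WBGene00006927, X:3567355-3572549) follow on the minus strand, with 3389 bases between them. The genes vit-2 (WBGene00006926, X:5101042-5106169) and vit-1 (WBGene00006925, X:7727889-7733168) lie farther along on the plus strand. The gene vit-6 (WBGene00006930) spans IV:8261157-8266459 and rme-2 (WBGene00004374) spans IV:5470026-5473174, both on the plus strand. Summed exon lengths ran from 4870 bases for vit-5 to 5088 bases for vit-1, and the length was 2867 bases for rme-2. Within each of the groups vit-1 and vit-2, and vit-3, vit-4 and vit-5, the genes are near copies of each other. The sources used here do not give how reads matching more than 1 copy were counted, nor on which strand, so the split between copies is uncertain and sums over the copies are given as well.

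The libraries held from 5438798 to 155071752 reads in genes, a ratio of 28.5, and the fewest reads of any vitellogenin gene in a library were 1058, for vit-3. The targeted gene isp-1 had means of 295, 339, 360 and 395 CPM for wild type, isp-1, the sod-3 and the sod-5 double mutant. Wild type had a mean sod-3 level of 2.08 CPM, isp-1 one of 19.8 and the sod-5 double mutant one of 19.4. The libraries of the sod-3 double mutant had 0.148, 1.47 and 1.74 CPM, all below isp-1 and the last within the wild type range of 1.68 to 2.60 CPM. The level of sod-5 was under 2 CPM in every library and does not check its label. Replicate 2 of the sod-3 double mutant stood apart from its group. It had the highest vit-2, vit-6 and rme-2 levels of the 3, the highest summed oocyte markers (9935 CPM, against 7661 and 6719) and the lowest summed sperm markers (66.4 CPM, against 131 and 201). Replicate 3 of the sod-5 double mutant had the lowest level of every vitellogenin gene and of rme-2 in its group. It also had the highest summed intestinal markers there (5347 CPM, against 4037 and 4359). Results that rest on replicate 2 of the sod-3 double mutant are also given without it. Against isp-1, and against wild type, 4 of the followed genes stayed called in the sod-5 double mutant with any single library left out.

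The gene vit-3 changed most among the 7. Its level was 2890.3, 2740 and 2697 CPM for wild type, 1139, 860.3 and 1037 for isp-1, 306, 318 and 252 for the sod-3 double mutant and 278, 195 and 157 for the sod-5 double mutant. Every isp-1 library was below every wild type library, and every double mutant library was below every isp-1 library, while the double mutants overlapped. In limma's test with Benjamini-Hochberg adjustment over all 14013 tested genes, vit-3 fell 2.76-fold in isp-1 against wild type (log2 -1.46, SE 0.18, adjusted p = 0.00016). Against isp-1 it fell a further 3.46-fold in the sod-3 double mutant (log2 -1.79, SE 0.18, limma adjusted p = 0.000112) and 4.92-fold in the sod-5 double mutant (log2 -2.30, SE 0.18, limma adjusted p = 1.16e-05). These 2 comparisons share the isp-1 libraries. Against wild type the double mutants stood 9.53-fold and 13.6-fold lower.

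The neighbouring copy vit-4 fell in the same comparisons, by a smaller fold in each, and the difference between the genes was not tested. It was at 2328, 2285 and 2207 CPM for wild type, 1821, 1408 and 1667 for isp-1, 595, 587 and 518 for the sod-3 double mutant and 579, 452 and 380.1 for the sod-5 double mutant. The order of the genotypes was that of vit-3, again with overlap only between the double mutants. The fall in isp-1 was 1.40-fold (log2 -0.49, SE 0.14, limma adjusted p = 0.0317). That call was lost when any single wild type or isp-1 library was left out, with limma adjusted p from 0.0515 to 0.12, although the libraries did not overlap. It was also lost under median centring, quantile normalization, TMM factors and edgeR, with adjusted p from 0.0606 to 0.146. Against isp-1, vit-4 fell 2.87-fold in the sod-3 double mutant (log2 -1.52, SE 0.14, limma adjusted p = 7.5e-05) and 3.50-fold in the sod-5 double mutant (log2 -1.81, SE 0.14, limma adjusted p = 1.16e-05).

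The third copy of that group, vit-5, was the most abundant of the 3 and was not called in isp-1. Its level was 7439, 7220 and 7206 CPM for wild type, 9033, 6651 and 7859 for isp-1, 4358, 4531 and 3599 for the sod-3 double mutant and 4313, 3266 and 2299 for the sod-5 double mutant. Wild type and isp-1 overlapped, and all 6 double mutant libraries were below both. The difference between isp-1 and wild type was log2 0.10 (95% interval -0.32 to 0.51, limma adjusted p = 0.775). Against isp-1 the gene fell 1.88-fold in the sod-3 double mutant (log2 -0.91, SE 0.19, limma adjusted p = 0.0387) and 2.44-fold in the sod-5 double mutant (log2 -1.29, SE 0.19, limma adjusted p = 0.00293). The call in the sod-3 double mutant was lost in 9 of the 12 fits that left out 1 library, with limma adjusted p up to 0.208. It was kept without replicate 2 of the same genotype (limma adjusted p = 0.0345) and without replicate 1 or 3 of the sod-5 double mutant. Median centring (limma adjusted p = 0.0942), TMM factors (limma adjusted p = 0.0735), quantile normalization (limma adjusted p = 0.504) and edgeR (adjusted p = 0.0904) also ended it. The summed level of vit-3, vit-4 and vit-5 was 12338 ± 285 CPM for wild type, 10492 ± 1538 for isp-1, 5021 ± 571 for the sod-3 double mutant and 3972 ± 1168 for the sod-5 double mutant (SD, n = 3 each). The sum does not depend on how counted reads were split between the copies. It may depend on whether reads matching more than 1 copy were counted.

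Of the other pair of copies, vit-1 fell in the double mutants and vit-2 did not pass the test in any comparison. The level of vit-1 was 4869, 4905 and 4781 CPM for wild type, 4338, 3400.3 and 4250 for isp-1, 2215, 1687 and 1989 for the sod-3 double mutant and 2099, 1692 and 1229 for the sod-5 double mutant. Each isp-1 library was below each wild type library, and all double mutant libraries were lower still. The difference between isp-1 and wild type did not pass the test (log2 -0.29, 95% interval -0.66 to 0.09, limma adjusted p = 0.273). Against isp-1, vit-1 fell 2.04-fold in the sod-3 double mutant (log2 -1.03, SE 0.17, limma adjusted p = 0.00792) and 2.43-fold in the sod-5 double mutant (log2 -1.28, SE 0.17, limma adjusted p = 0.00153). The first of these calls was lost without isp-1 replicate 1 (limma adjusted p = 0.0594) or replicate 3 (limma adjusted p = 0.062).

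The level of vit-2 was 17633, 16356 and 15839 CPM for wild type, 22659.5, 17918 and 20525 for isp-1, 15871, 24678 and 14308 for the sod-3 double mutant and 18697, 14227 and 11374 for the sod-5 double mutant. The isp-1 libraries were all above the wild type libraries, and each double mutant overlapped isp-1 through a single library. That was replicate 2 of the sod-3 and replicate 1 of the sod-5 double mutant, and their other libraries lay below every isp-1 library. The difference was log2 0.29 in isp-1 against wild type (95% interval -0.16 to 0.74, limma adjusted p = 0.366), log2 -0.19 in the sod-3 double mutant against isp-1 (95% interval -0.64 to 0.26, limma adjusted p = 0.871) and log2 -0.49 in the sod-5 double mutant against isp-1 (95% interval -0.93 to -0.04, limma adjusted p = 0.371). Without replicate 2 of the sod-3 double mutant the second of these was log2 -0.43 (limma adjusted p = 0.241). The intervals are for a single gene and are not adjusted for the number of genes tested. The sum of vit-1 and vit-2 was 21461 ± 957 CPM for wild type, 24364 ± 2862 for isp-1, 20249 ± 5371 for the sod-3 double mutant and 16439 ± 4121 for the sod-5 double mutant (SD, n = 3 each), so the fall of vit-1 is small beside the level of vit-2.

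The autosomal gene vit-6 was the most abundant of the 7 and followed vit-2. It was at 22254, 21172 and 20319.8 CPM for wild type, 30156, 23341 and 26246 for isp-1, 21598, 28085 and 19021 for the sod-3 double mutant and 24559.8, 19081 and 14208 for the sod-5 double mutant. All isp-1 libraries were above all wild type libraries, and the double mutants overlapped both. The sod-3 double mutant reached the isp-1 range through replicate 2 alone and the sod-5 double mutant through replicate 1 alone. Their other libraries lay below every isp-1 library. None of the vit-6 differences passed the test. They were log2 0.32 in isp-1 against wild type (95% interval -0.10 to 0.73, limma adjusted p = 0.277), log2 -0.23 in the sod-3 double mutant against isp-1 (95% interval -0.64 to 0.19, limma adjusted p = 0.817) and log2 -0.49 in the sod-5 double mutant against isp-1 (95% interval -0.91 to -0.08, limma adjusted p = 0.32). Leaving out replicate 2 of the sod-3 double mutant moved its difference from isp-1 to log2 -0.38 (limma adjusted p = 0.331). Fitted on the 6 wild type and isp-1 libraries alone, where the SDs of vit-2 and vit-6 were smaller than in the double mutants, the lower level of vit-1 (limma adjusted p = 0.016) and the higher levels in isp-1 of vit-2 (limma adjusted p = 0.0144) and vit-6 (limma adjusted p = 0.0104) passed the test. Under quantile normalization the vit-6 difference between isp-1 and wild type turned to log2 -0.31.

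The receptor gene rme-2, which oocytes rather than the intestine express, was not called in any comparison. It was at 725, 830.4 and 933 CPM for wild type, 955, 871 and 987 for isp-1, 841, 1095 and 770.2 for the sod-3 double mutant and 1019, 859.9 and 603 for the sod-5 double mutant. All 4 genotypes overlapped, although the sod-3 double mutant overlapped isp-1 through replicate 2 alone and the sod-5 double mutant through replicate 1 alone. The differences from limma were log2 0.18 in isp-1 against wild type (95% interval -0.21 to 0.57, adjusted p = 0.527), log2 -0.07 in the sod-3 double mutant against isp-1 (95% interval -0.46 to 0.32, adjusted p = 0.952) and log2 -0.21 in the sod-5 double mutant against isp-1 (95% interval -0.60 to 0.18, adjusted p = 0.693). Without replicate 2 of the sod-3 double mutant its difference from isp-1 was log2 -0.22 (limma adjusted p = 0.607).

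**Figure D1:**
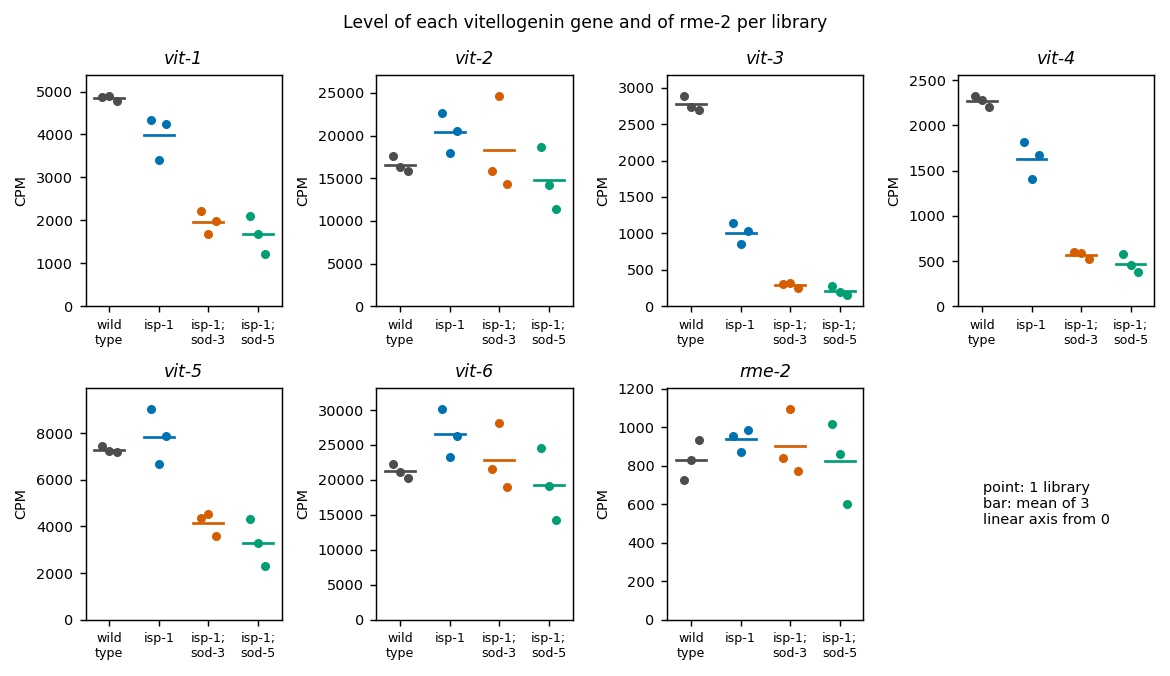
Level of each vitellogenin gene and of rme-2 in CPM (vertical axes, linear from 0) by genotype, with 1 point per library and a bar at the mean of 3. The levels of vit-1, vit-3 and vit-4 step down from wild type to isp-1 to the double mutants, vit-5 is lower in the double mutants alone, and vit-2, vit-6 and rme-2 overlap between most genotypes.

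Counted over the 7 genes, isp-1 against wild type had 0 higher and 2 lower, vit-3 and vit-4, where 20.0% of all tested genes were called and 10.4% were called lower. Libraries did not overlap for 2 higher genes, vit-2 and vit-6, and 3 lower ones, vit-1, vit-3 and vit-4, and this held for 26.0% of all tested genes in the higher and 25.7% in the lower direction. In the sod-3 double mutant against isp-1 there were 0 higher and 4 lower, vit-1, vit-3, vit-4 and vit-5, against 1.08% of all genes called and 0.528% called lower. In the sod-5 double mutant against isp-1 the same 4 genes were lower and 0 were higher, against 1.21% of all genes called and 0.564% called lower. In both, the called genes were also those whose libraries did not overlap, and 6.77% and 5.82% of all genes had libraries that lay lower without overlap. The 4 genes were thus among the 74 and 79 tested genes called lower when sod-3 or sod-5 was mutated in addition to isp-1.

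The median log2 difference of the 7 genes was 0.10 in isp-1 against wild type, -0.91 in the sod-3 double mutant against isp-1 and -1.28 in the sod-5 double mutant against isp-1, beside medians of 0.0073, 0.030 and 0.053 over all tested genes. For the 6 vitellogenin genes alone the median in isp-1 against wild type was -0.10, the opposite sign. Since vit-3 and vit-4 fell while vit-2 and vit-6 were at higher levels, a single value does not describe the family in that comparison.

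**Figure D2:**
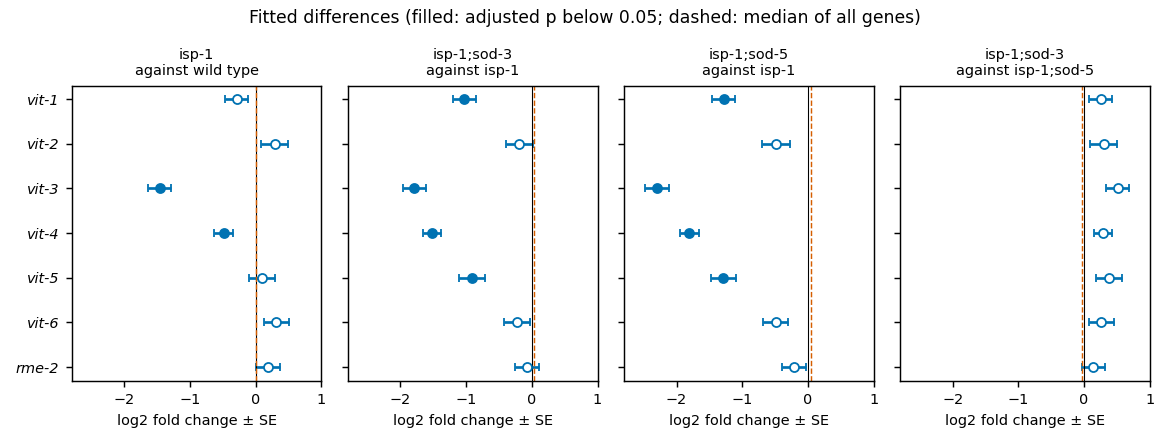
Fitted log2 fold change (horizontal axes) with its limma SE for each of the 7 genes in 4 comparisons, filled where the adjusted p was below 0.05, with the median of all genes as a dashed line. In isp-1 only vit-3 and vit-4 are filled, and in both double mutants against isp-1 the filled genes are vit-1, vit-3, vit-4 and vit-5.

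Against wild type, each double mutant again had 0 higher and 4 lower of the 7, the same 4 genes. The share of all tested genes called was 17.0% in the sod-3 double mutant, with 6.57% lower, and 24.3% in the sod-5 double mutant, with 10.2% lower. Libraries lay lower without overlap for the same 4 genes, and for 17.8% and 18.6% of all genes. In the sod-3 double mutant, vit-1 was 2.49-fold (limma adjusted p = 0.000204), vit-3 9.53-fold (limma adjusted p = 6.25e-08), vit-4 4.02-fold (limma adjusted p = 8.51e-07) and vit-5 1.76-fold lower (limma adjusted p = 0.0116). In the sod-5 double mutant the falls were 2.97-fold for vit-1 (limma adjusted p = 4.27e-05), 13.6-fold for vit-3 (limma adjusted p = 1.23e-08), 4.90-fold for vit-4 (limma adjusted p = 1.84e-07) and 2.29-fold for vit-5 (limma adjusted p = 0.000906). These comparisons share the wild type libraries, and their differences include those of isp-1 from wild type. The latter were called lower for vit-3 and vit-4 and not called for vit-1 and vit-5. The uncalled genes vit-2, vit-6 and rme-2 differed from wild type by log2 0.10, 0.09 and 0.11 in the sod-3 double mutant and by log2 -0.20, -0.17 and -0.03 in the sod-5 double mutant. Without replicate 2 of the sod-3 double mutant the former became log2 -0.14, -0.067 and -0.036, and the same 4 genes remained called.

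Between the double mutants, 0 of the 7 genes were called by limma, by edgeR or by DESeq2, and 1 of them, vit-3, had an unadjusted p below 0.05, while 0.107% of all tested genes were called. The fitted differences ran from log2 0.14 for rme-2 to log2 0.51 for vit-3 (95% interval 0.13 to 0.89, limma adjusted p = 0.92), with the sod-3 double mutant at the higher level. Part of this rested on replicate 2 of that genotype, without which rme-2 was at log2 -0.0058, vit-2 at 0.059 in place of 0.30 and vit-6 at 0.11 in place of 0.26. Without it vit-1 was at log2 0.36 in place of 0.26, and vit-3 at 0.44. Without replicate 3 of the sod-5 double mutant, rme-2 was at log2 -0.069. The lowest log2 differences with 1 library left out were 0.050 for vit-1, 0.32 for vit-3, 0.14 for vit-4, 0.14 for vit-5 and 0.062 for vit-6. For vit-4 the difference was log2 0.29 (95% interval -0.02 to 0.60) and for vit-5 log2 0.38 (95% interval -0.04 to 0.79), so differences of up to about that size were not resolved. The libraries of the double mutants overlapped for all 7 genes, and they did not for 5.22% of all tested genes.

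Together the 6 vitellogenin genes took 5.74%, 5.47% and 5.31% of all reads in genes in the wild type libraries and 6.91%, 5.36% and 6.16% in isp-1. They took 4.49%, 5.99% and 3.97% in the sod-3 double mutant and 5.05%, 3.89% and 2.96% in the sod-5 double mutant. Wild type and isp-1 overlapped. Every library of the sod-5 double mutant was below every isp-1 library, and so were replicates 1 and 3 of the sod-3 double mutant, whose replicate 2 lay within the isp-1 range. Of the summed vitellogenin level, vit-2 and vit-6 made up 30.2% and 38.6% in wild type and 37.3% and 48.5% in the sod-5 double mutant, whereas the share of vit-3 was 5.04% in the former and 0.526% in the latter.

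**Figure D3:**
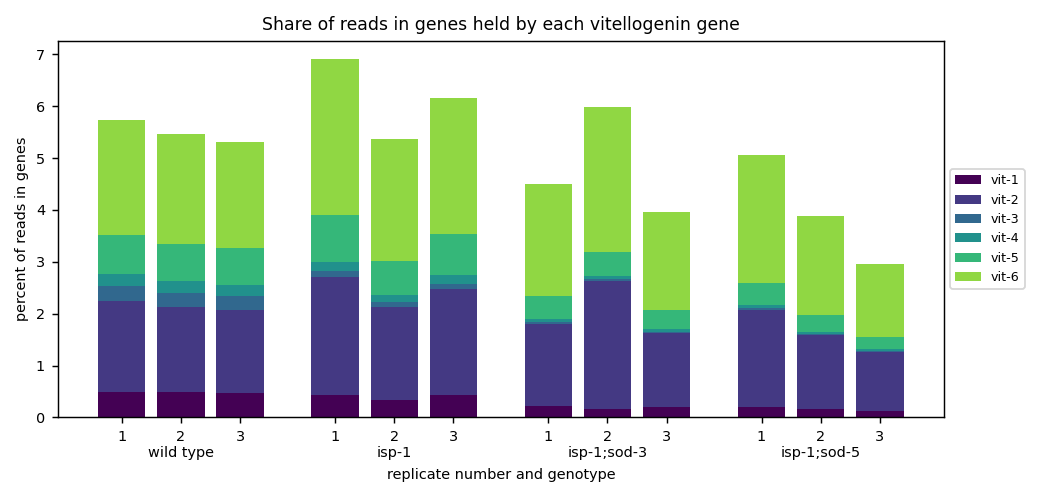
Percent of reads in genes (vertical axis) held by vit-1 to vit-6 in each of the 12 libraries, stacked by gene and grouped by genotype. The total runs from 2.96% to 6.91%, most of it from vit-2 and vit-6, and the bands of vit-3 and vit-4 are thin in the double mutants.

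Levels between the genes were compared per kilobase of exon. In wild type the order was vit-6 at 4196, vit-2 at 3366, vit-5 at 1497, vit-1 at 954, vit-3 at 564, vit-4 at 461 and rme-2 at 289 CPM per kilobase, and no neighbours in that order overlapped. In isp-1 vit-3 dropped to the last place at 206 CPM per kilobase, and vit-4 at 331 and rme-2 at 327 CPM per kilobase overlapped. In both double mutants vit-6 overlapped vit-2 and vit-1 overlapped rme-2, and the last places were held by vit-4 and vit-3, at 115 and 59.3 CPM per kilobase in the sod-3 double mutant and 95.3 and 42.6 CPM per kilobase in the sod-5 double mutant. Among all genes ranked by CPM in a library, vit-6 was always at rank 1 or 2 and vit-2 at rank 2 or 3, whereas vit-3 ranged from rank 14 to rank 1190.

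Ratios within a library remove whatever scales all of these genes together. The ratio of vit-2 to vit-6 in CPM came to 0.781 ± 0.010 for wild type, 0.767 ± 0.015 for isp-1, 0.789 ± 0.079 for the sod-3 double mutant and 0.769 ± 0.028 for the sod-5 double mutant (SD, n = 3 each). The ratio of vit-3 to vit-6 was 0.131 ± 0.0018, 0.0381 ± 0.0014, 0.0129 ± 0.0015 and 0.0109 ± 0.00058 in the same order. The ratio of vit-4 to vit-6 was 0.107 ± 0.0021, 0.0614 ± 0.0018, 0.0252 ± 0.0038 and 0.0247 ± 0.0018. Wild type, isp-1 and the double mutants formed 3 separate levels for vit-3 and vit-4, while the vit-2 ratio overlapped between all 4 genotypes. In the sod-3 double mutant the vit-2 ratio was 0.735, 0.879 and 0.752, so replicate 2 was above and the others were below every wild type library.

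The ratio of vit-5 to vit-6 went from 0.343 ± 0.010 in wild type to 0.295 ± 0.0084 in isp-1, 0.184 ± 0.021 in the sod-3 double mutant and 0.170 ± 0.0071 in the sod-5 double mutant. For vit-1 it went from 0.229 ± 0.0087 to 0.150 ± 0.0099, 0.0891 ± 0.025 and 0.0869 ± 0.0016. The isp-1 libraries were below wild type in both ratios with no overlap, although neither gene's own level was called in isp-1. Replicate 2 of the sod-3 double mutant had a vit-1 to vit-6 ratio of 0.0601, against 0.103 and 0.105 in the other libraries of the group. These ratios are descriptions and were not tested.

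**Figure D4:**
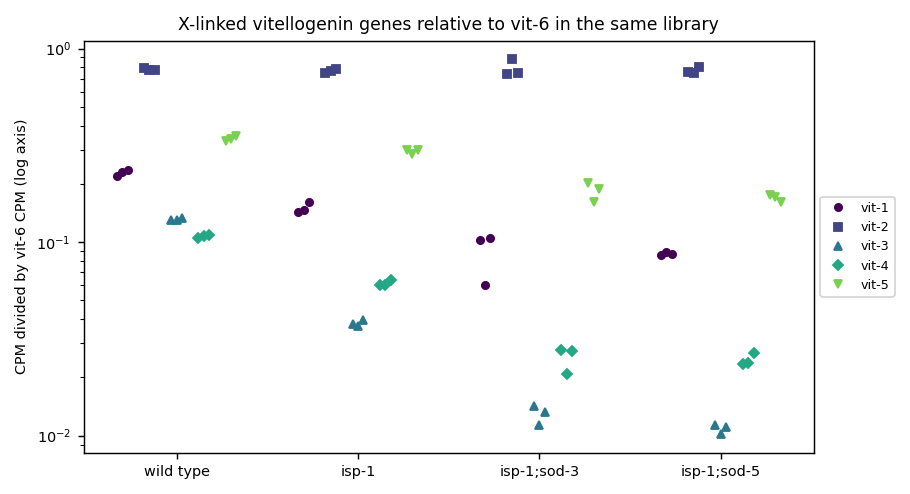
CPM of each X-linked vitellogenin gene divided by the CPM of vit-6 in the same library (vertical axis, log scale) by genotype, with 1 point per library. The ratio of vit-2 lies between 0.735 and 0.879 throughout, and that of vit-3 drops from 0.131 in wild type to 0.0109 in isp-1;sod-5.

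The adjacent copies vit-3 and vit-4 also changed relative to each other. The ratio of vit-3 to vit-4 was 1.24, 1.20 and 1.22 in the wild type libraries, 0.626, 0.611 and 0.622 in isp-1, 0.514, 0.542 and 0.486 in the sod-3 double mutant, and 0.480, 0.430 and 0.413 in the sod-5 double mutant. Each genotype's range was separate from those of the others. With reads of near-identical copies, a ratio between them also depends on how shared reads were assigned.

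Across the 12 libraries, log2 levels of vit-2 and vit-6 had a Pearson r of 0.98, vit-1 and vit-4 one of 0.98 and vit-3 and vit-4 one of 0.98, whereas vit-3 and vit-6 had 0.33 and vit-1 and vit-2 had 0.39. After subtracting each genotype's mean, r was 0.99 for vit-3 and vit-4, 0.97 for vit-2 and vit-6, 0.93 for vit-3 and vit-6, 0.84 for vit-6 and rme-2 and 0.36 for vit-1 and vit-2. Within a genotype vit-3 and vit-6 thus went up and down together from library to library, although they parted between genotypes. These values are over 12 libraries that share their normalization, and copies may share reads.

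By likeness of profile over the 12 libraries, the genes closest to the mean log2 level of vit-1 to vit-6 were the collagen gene col-135 (r 0.95), the cathepsin B-like protease gene cpr-6 (r 0.94), the peroxisomal acyl-CoA oxidase gene acox-1.3 (r 0.91), the cytochrome P450 gene cyp-35C1 (r 0.91) and acs-22 (r 0.91), of the fatty acid transport and acyl-CoA synthetase family. After subtracting each genotype's mean, their r with it was 0.43, 0.22, 0.30, -0.070 and 0.093 in the same order, so the likeness lay mostly between genotypes. This mean does not describe vit-2 and vit-6. The 5 genes closest to each of those held none of these genes and were led by bet-2 (r 0.92 for vit-2 and 0.94 for vit-6). The mean level of col-135 was 39.4, 35.9, 15.4 and 13.97 CPM for wild type, isp-1, the sod-3 and the sod-5 double mutant, and that of cyp-35C1 was 17.9, 7.77, 1.81 and 1.52 CPM. Closest to rme-2 were mcm-5 (r 0.97), mcm-6 (r 0.96), rif-1.1 (r 0.96), top-2 (r 0.95) and mcm-2 (r 0.95), of which the mcm genes encode subunits of the replicative helicase and top-2 a topoisomerase. Their r within genotypes ran from 0.96 to 0.99.

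The genes beside vit-3 and vit-4 were read as well, 5 other tested genes within 25 kb of each. Their log2 differences ran from -0.94 to 0.24 in isp-1 against wild type and from -0.33 to 0.51 in the sod-5 double mutant against isp-1, none passing limma's test. Of them ckc-1, a choline kinase gene chosen after its values were seen, was called lower in each double mutant against wild type. Over the whole X chromosome, 13 of 1942 tested genes were called higher and 18 lower in the sod-3 double mutant against isp-1, and 13 higher and 17 lower in the sod-5 double mutant against isp-1, in each case with vit-1, vit-3, vit-4 and vit-5 among those lower. On chromosome IV, 13 of 2384 tested genes were called higher and 15 lower in the former, and 14 higher and 15 lower in the latter. Over all tested genes, 0.528% and 0.564% were called lower.

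Among 17 regulators that act on vitellogenin transcription or on its timing, edgeR and DESeq2 each called 3 in isp-1 against wild type. Limma called 1 higher and 1 lower, where it called 20.0% of all tested genes. The higher one was hbl-1, a hunchback-like transcription factor of the heterochronic pathway, which controls the timing of larval development. Its mean rose from 8.12 CPM in wild type to 30.4 CPM in isp-1 (log2 1.83, SE 0.22, limma adjusted p = 0.000124). Against isp-1 it fell to 13.8 CPM in the sod-3 double mutant (log2 -1.12, SE 0.22, limma adjusted p = 0.0201) and 10.5 CPM in the sod-5 double mutant (log2 -1.49, SE 0.22, limma adjusted p = 0.00233) and was the only regulator limma called in either comparison, where 1.08% and 1.21% of all genes were called. On the recovered reads edgeR called 2 and 1 regulators there, and DESeq2 called 2 in each. The fall in the sod-3 double mutant was lost without either replicate 1 or 3 of isp-1 or of the sod-3 double mutant, with limma adjusted p from 0.0844 to 0.145, and in the fit of the 6 libraries compared (limma adjusted p = 0.0799).

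The lower regulator in isp-1 was ceh-60, a PBC-class homeobox factor that acts with UNC-62 on the vit promoters, with a mean of 10.8 CPM for wild type and 7.30 for isp-1 (log2 -0.54, SE 0.18, limma adjusted p = 0.0476). That call was lost without any single wild type or isp-1 library, without replicate 1 of the sod-3 double mutant or without replicate 2 of the sod-5 double mutant, with limma adjusted p from 0.0541 to 0.171. It was also lost with a filter at 5 CPM (limma adjusted p = 0.0515) and under quantile normalization (limma adjusted p = 0.0647). Against wild type, 2 regulators were higher and 0 lower in the sod-3 double mutant, and 2 higher and 2 lower in the sod-5 double mutant, beside 17.0% and 24.3% of all genes called. Among these pqm-1, a zinc finger factor, rose from 16.5 CPM to 35.2 CPM in the sod-3 double mutant (log2 1.07, SE 0.18, limma adjusted p = 0.00136) and 35.5 CPM in the sod-5 double mutant (log2 1.07, SE 0.18, limma adjusted p = 0.00129). The list's median log2 difference was 0.04 in isp-1 against wild type, 0.11 in the sod-3 double mutant against isp-1 and 0.09 in the sod-5 double mutant against isp-1, and 0.033 and 0.0048 in the double mutants against wild type.

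Of 8 genes for loading lipid onto yolk proteins, moving them out of the endoplasmic reticulum and processing them, 4 were lower and 0 higher in isp-1, where 10.4% of all tested genes were called lower. They were dsc-4, sec-24.2, tfg-1 and sec-23. The first, dsc-4, encodes the microsomal triglyceride transfer protein, and fell from 112 to 78.2 CPM (log2 -0.51, SE 0.14, limma adjusted p = 0.0215). Its call was lost without replicate 1 or 3 of either genotype, with limma adjusted p from 0.0546 to 0.104. The endoplasmic reticulum exit site gene tfg-1 fell from 228 to 148 CPM (log2 -0.62, SE 0.11, limma adjusted p = 0.00303), and the COPII coat gene sec-23 fell from 231 to 171 CPM (log2 -0.43, SE 0.09, limma adjusted p = 0.00531).

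The list's median log2 difference was -0.32 in isp-1 against wild type, and 6 of the 8 were lower in each double mutant against wild type, with medians of -0.33 and -0.34, where 6.57% and 10.2% of all genes were called lower. Between the double mutants and isp-1, limma called 0 of the 8. In the sod-3 double mutant the count at an unadjusted p below 0.05 was 1, with 0 called by edgeR and 0 by DESeq2, and in the sod-5 double mutant it was 1, with 0 called by edgeR and 1 by DESeq2. The medians there were 0.02 and 0.01.

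Of 16 genes for clathrin-mediated uptake and trafficking, limma called 0 in isp-1 against wild type, where 20.0% of all tested genes were called. There 2 had an unadjusted p below 0.05, edgeR and DESeq2 called 1 each, and the median was -0.05. In the sod-3 double mutant against isp-1 the dynamin gene dyn-1, which pinches off endocytic vesicles, rose from 80.0 to 137 CPM (log2 0.77, SE 0.09, limma adjusted p = 0.000377). It was the only one called, where 1.08% of all genes were called. The level of dyn-1 was also higher than in the sod-5 double mutant (log2 0.74, SE 0.09, limma adjusted p = 0.00199), a comparison with 0.107% of all genes called. In the sod-5 double mutant against isp-1, 0 of the 16 were called by limma, edgeR or DESeq2 and 0 had an unadjusted p below 0.05. Limma called 1.21% of all genes there. Fitted on the 6 double mutant libraries alone, the dyn-1 difference between these genotypes was not called (limma adjusted p = 0.158). Against wild type, limma called 1 of the 16 higher in the sod-3 double mutant and 0 in the sod-5 double mutant, beside 17.0% and 24.3% of all genes called. There edgeR and DESeq2 each called 3 and 0.

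Of 9 lbp genes, which encode fatty acid-binding proteins rather than yolk, 3 were higher and 0 lower in isp-1, where 9.60% of all tested genes were called higher. The called genes, whose products carry predicted secretion signals, were lbp-1 (34.3 to 60.3 CPM, log2 0.80, SE 0.15, limma adjusted p = 0.003), lbp-2 (167 to 249 CPM, log2 0.58, SE 0.11, limma adjusted p = 0.00349) and lbp-3 (44.6 to 66.0 CPM, log2 0.57, SE 0.17, limma adjusted p = 0.0312). The call of lbp-3 was lost without wild type replicate 1 or 3 or without any single isp-1 library, with limma adjusted p from 0.0642 to 0.123. Against isp-1, limma called 0 of the 9 in the sod-3 double mutant, with 1 at an unadjusted p below 0.05 and 0 by edgeR and DESeq2, and 0 in the sod-5 double mutant, with 2 at an unadjusted p below 0.05, 0 by edgeR and 1 by DESeq2. Against wild type 4 were higher in each double mutant, where 10.4% and 14.1% of all genes were called higher.

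**Figure D5:**
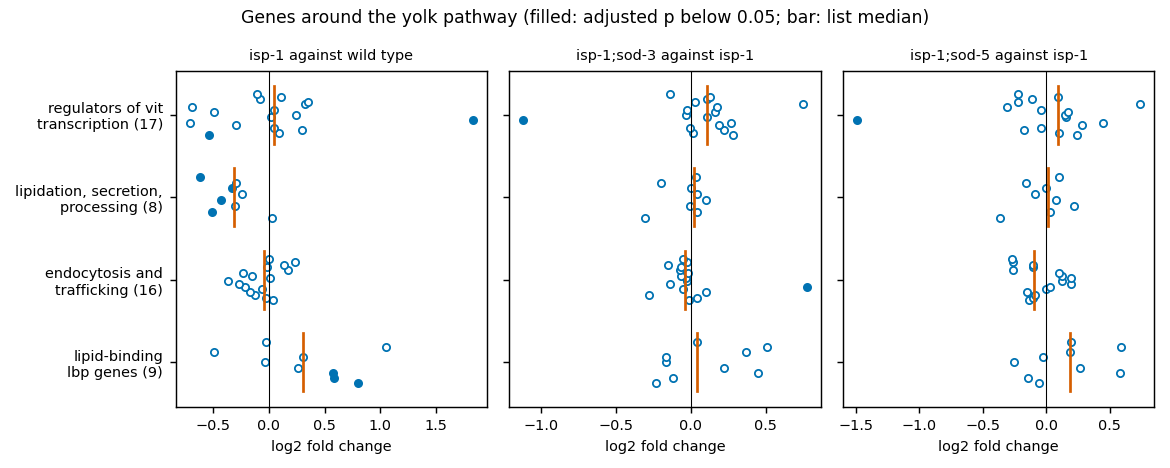
Fitted log2 fold change (horizontal axes) of every gene in the 4 lists around the yolk pathway, filled where the limma adjusted p was below 0.05, with the list's median as a bar. The regulator hbl-1 lies at 1.83 in isp-1 against wild type and at -1.12 and -1.49 in the double mutants against isp-1, and the filled point among the endocytosis genes is dyn-1.

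Marker genes of the tissues that make and take up yolk were read beside these results. In bulk RNA, fewer cells of a type and less RNA per cell cannot be told apart. The summed level of the 13 measured intestinal markers of 14 listed was 5380.5 to 5643 CPM in wild type, 4007 to 4299.8 CPM in isp-1, 4109 to 5167 CPM in the sod-3 double mutant and 4037 to 5347 CPM in the sod-5 double mutant. The sum was lower in isp-1 than in wild type without overlap, as vit-1, vit-3 and vit-4 were. Most of that fall came from 1 gene, the aspartic protease gene asp-1, which went from 2704 to 1732 CPM (log2 -0.64, SE 0.15, limma adjusted p = 0.01), and the list's median log2 difference was -0.11. In each double mutant the summed level overlapped that of isp-1, with some libraries above every isp-1 library. The levels of vit-1, vit-3, vit-4 and vit-5 lay below those of isp-1. The list contains cpr-6, one of the genes closest in profile to the vitellogenin mean. In isp-1, 2 of the 13, ges-1 and mtm-6, were called higher and 1, asp-1, lower, beside 9.60% and 10.4% of all tested genes. No intestinal marker was at 0 in all 3 libraries of a genotype. The part of the intestinal share in the vitellogenin levels of isp-1 and of the double mutants was not tested.

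The 14 oocyte markers summed to 7852 to 8129.7 CPM in wild type, 7784 to 8846 CPM in isp-1, 6719 to 9935 CPM in the sod-3 double mutant and 7783 to 9205 CPM in the sod-5 double mutant. These ranges overlapped, as those of rme-2 did. In every comparison limma, edgeR and DESeq2 called 0 of the 14, while limma called from 0.107% to 24.3% of all tested genes. An unadjusted p below 0.05 was reached by 1 in the sod-3 double mutant against wild type and by 0 in the other comparisons. The 12 measured sperm markers of 14 listed summed to 208 to 228 CPM in wild type and 81.0 to 112 CPM in isp-1. They summed to 66.4 to 201 CPM and 84.2 to 138 CPM in the sod-3 and the sod-5 double mutant. In isp-1, 8 of the 12 were called lower, where 10.4% of all tested genes were. The 10 molting markers summed to 422 to 578 CPM in wild type and 287 to 363 CPM in isp-1. They summed to 278 to 695 CPM and 222 to 443 CPM in the double mutants. In isp-1, 2 of the 10 were called lower, beside the same 10.4%. The 5 adult cuticle markers, at 1622 to 1798 CPM in isp-1 and 1665 to 1690.0 CPM in wild type, ran from 1123 CPM in isp-1;sod-3 replicate 2 to 2442 CPM in replicate 3, so the libraries of that genotype differed in adult cuticle genes. Most of these sums was col-19, at a mean of 1246 CPM in wild type and 1553 in isp-1. The other 4 were at lower means in isp-1, by log2 -1.78 for bli-1, -1.57 for bli-2, -1.18 for bli-6 and -0.84 for col-7. In isp-1, limma called 0 of the 5, where it called 20.0% of all tested genes. Of the 5, 4 had an unadjusted p below 0.05, 3 were called by edgeR and 2 by DESeq2. The 5 gonad sheath markers summed to 105 to 153 CPM over the 12 libraries, and 2 of 10 early embryo markers were measured, at a sum of 1.22 to 4.35 CPM. The part of developmental timing in the vitellogenin levels was not tested.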

How the data were processed

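The deposited matrix holds CPM made by the authors, counts per 1000000 reads in genes, for 14326 genes in 12 libraries from a stranded mRNA kit. The build WBcel235 and the tools featureCounts 1.4.6, Subread 1.5.0, edgeR 3.14.0, R 3.3.0, FastQC 0.11.3 and bcl2fastq 2.17.1.14 are listed, without roles, per the submitters' processing notes. Each column sums to 1000000, so no further scaling factor is in the values. Ensembl gene models of WBcel235 supplied names, coordinates and exon lengths and held 14250 of the identifiers. All values were whole multiples of 1 read in their library within 0.001 reads (100% of values), which gave back read counts. Replicates within a genotype differed beyond sampling noise, with a chi-square per degree of freedom from 5.05 to 128, so no library was merged or dropped.

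Tests were made in R 4.3.3 with limma 3.58.1 (trend and robust options, two-sided) on log2(CPM + 0.5) of the 14013 genes above 1 CPM in at least 3 libraries. All 12 libraries entered 1 fit with genotype as the factor, and a gene counted as called where its p, adjusted by Benjamini-Hochberg within each of 6 comparisons, was below 0.05. The pseudocount understates fold changes of low genes. On simulated data for isp-1 against wild type the test recovered 31.3% of 67 genes changed 1.5-fold, 79.1% of 67 changed 2-fold and 100% of 66 changed 4-fold. These were few among 14013 genes, whereas 20.0% were called in the real comparison, so the rates may not carry over to it. The recovered read counts were tested with edgeR 4.0.16 and DESeq2 1.42.0 as alternatives. Others were the pseudocount, the filter, scalings, a replicate block, a 6-library fit, a threshold of 0.01 and leaving out each library. Named genes are the 7 members, the targeted genes, the 5 genes closest in profile to the vitellogenin mean and to rme-2 among those with a locus name and a mean of at least 5 CPM, and up to 3 called members of each list per comparison with the smallest adjusted p. Other genes named, such as sec-24.2, ckc-1 and bet-2, were chosen after their values were seen. The members and lists were chosen with earlier results of these data known. Sequences were not analysed here.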

Additional observations from a re-analysis of the deposited data

How the results depend on the processing

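For the 7 genes, 1075 of 1134 values recomputed under the alternatives kept their direction and side of the threshold. Another 39 lost a call or, for some uncalled vit-2 and vit-6 differences, became 0 under quantile normalization. A further 3 gained a call and 17 changed sign, none of these a called difference. For the named pathway genes, 713 of 809 were kept and 96 lost a call. The number of the 7 genes called in isp-1 against wild type, 2 in the report, was 1 under median centring, quantile normalization, TMM factors, a threshold of 0.01 and edgeR, and 5 in the 6-library fit, and ran from 1 to 2 when 1 library was left out. It was also 1 without the deepest and the shallowest library together and with rrn-3.1 left out of the total, both chosen after seeing the data. In the sod-3 double mutant against isp-1, 4 became 2 under quantile normalization and ran from 2 to 4 when 1 library was left out. The calls of vit-3 in isp-1, and of vit-3 and vit-4 in the double mutants against isp-1, held under every alternative run, with a highest limma adjusted p of 0.00261.

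Quantile normalization gives the most abundant genes fixed values by construction. Under it vit-6 turned to log2 -0.31 in isp-1 and the sod-3 double mutant against wild type and 0.31 in the sod-5 double mutant against isp-1, vit-2 to 0.11 in the sod-5 double mutant against isp-1 and wild type, and between the double mutants vit-2 and vit-6 to -0.11 and -0.31. It also ended the calls of vit-5 in the sod-5 double mutant against isp-1 (limma adjusted p = 0.149) and in the sod-3 double mutant against wild type (limma adjusted p = 0.243). With 1 library left out, the uncalled log2 differences that changed sign ran from -0.011 to 0.21 for vit-5 in isp-1, from -0.22 to 0.036 for rme-2 in the sod-3 double mutant against isp-1, from -0.14 to 0.25, -0.067 to 0.21 and -0.036 to 0.22 for vit-2, vit-6 and rme-2 in the sod-3 double mutant against wild type, from -0.37 to 0.028 and -0.20 to 0.18 for vit-6 and rme-2 in the sod-5 double mutant against wild type, and from -0.069 to 0.31 for rme-2 between the double mutants. Where no construction is named, the cause was not tested.

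Over all genes, the 2798 called in isp-1 against wild type became 1792 with a 5 CPM filter, 5702 in the 6-library fit, 890 at a threshold of 0.01 and 1088 to 3581 with 1 library left out. Against isp-1, the 152 of the sod-3 and the 169 of the sod-5 double mutant became 91 and 89 at 0.01, 323 and 334 with DESeq2, and 89 to 228 and 89 to 261 with 1 library left out. Against wild type, 2379 and 3402 became 1039 and 1456 at 0.01 and 1211 to 3525 and 1865 to 4162 with 1 library left out, and 2379 became 1461 without the deepest and shallowest libraries. Between the double mutants 15 became 2 in the 6-library fit, 28 with DESeq2 and 6 without those libraries.

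Replicate numbers were not used to pair the libraries in the main fit. Of 18 same-numbered pairs, 5 had deviations correlated above 0.1, with r from -0.55 to 0.33. Pairs with different numbers were not compared, so these values cannot decide whether the numbers pair libraries. With a replicate block, 2, 4, 4, 4, 4 and 0 of the 7 genes were called in the 6 comparisons, as without it, and 2182, 127, 123, 1824, 2751 and 13 of all genes. Among the named pathway genes the block ended 6 calls, and none of the 7 genes': ceh-60 and lbp-3 in isp-1 against wild type (limma adjusted p = 0.0638 and 0.0532), hbl-1 and dsc-4 in the sod-3 double mutant against wild type (0.0617 and 0.0567), and lin-28 and mab-3 in the sod-5 double mutant against wild type (0.0526 and 0.061). The planned search for promoter motifs was not run.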
